A study of Mus musculus with 30 samples.

Results

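Potassium channel genes were taken as the protein-coding rows of a heart RNA count table whose mouse symbol starts with Kcn followed by a letter, with a mean of at least 0.5 CPM (counts scaled to the size of the library) over 30 libraries. The table had 94 such genes among 55487 rows, and 48 of them reached that level. They comprised 19 voltage-gated pore subunits, 7 accessory subunits, 9 inward rectifiers, 6 two-pore channels and 7 channels activated by calcium or sodium (Kcnmb1, a subunit of the large-conductance calcium-activated channel, was counted among these). Just inside the limit were Kcnk4 at 0.550 CPM and Kcnip1 at 0.562 CPM, and just outside it were Kcne3 at 0.486 CPM and Kcnma1 at 0.419 CPM. Of the 46 genes left out, 4 had no count in any library.

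RNA came from mouse hearts collected 8 weeks after sham surgery or transverse aortic constriction (TAC), in which a clip narrows the aorta and loads the heart with pressure. The study asked what the fatty acid transport enzyme CPT1a does under that load. In the floxed cohort, mice with a floxed Cpt1a gene (FF_sham and FF_TAC) were set against mice labelled as a cardiac specific CPT1a knockout (KO_sham and KO_TAC), with 4 libraries in each group. In the AAV9 cohort, C57Bl/6 mice received PBS (PBS_sham and PBS_TAC, 3 libraries each) or AAV9.Cpt1a, a viral vector that carries Cpt1a behind the cardiac cTNT promoter (AAV_sham and AAV_TAC, 4 libraries each). The Cre driver of the knockout, the age of the animals and the clip size used in each animal were not given in the sources used here. The labels do not say that each library was a separate animal, so the p-values measure the spread between these libraries. In RNA from heart tissue, fewer cells of a type and less RNA per cell cannot be told apart.

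Potassium channels let potassium leave the heart muscle cell and so end each beat's electrical signal. Voltage-gated pores carry the transient outward and delayed rectifier currents that shorten the action potential, and accessory subunits set how many of them reach the membrane and how fast they close. Inward rectifiers hold the resting potential, the ATP-sensitive channels open when energy runs low, and loss of repolarizing current is a known feature of failing hearts.

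Total counts ran from 14839758 to 22070373 per library. Cpt1a was at 38.7 to 53.7 CPM in FF_sham, 16.5 to 50.3 CPM in FF_TAC, 21.1 to 46.7 CPM in KO_sham and 11.3 to 19.9 CPM in KO_TAC. In the AAV9 cohort it was at 55.0 to 87.2 CPM in AAV_sham and 37.1 to 61.8 CPM in PBS_sham, and at 44.2 to 61.3 CPM in AAV_TAC and 39.9 to 60.8 CPM in PBS_TAC, so vector and PBS libraries overlapped. The library labelled KO_sham 2 had 46.7 CPM of Cpt1a, inside the FF_sham range, whereas the library labelled FF_TAC 2 held 20.7 CPM and that labelled FF_TAC 3 held 16.5 CPM, near the knockouts. In 7 libraries (FF_TAC 2 and 3, KO_sham 2 and all 4 of KO_TAC) haemoglobin transcripts summed to under 100 CPM. A list of 12 early-response genes such as Fos summed to 2160 to 5790 CPM in those 7 libraries and to 195 to 1075 CPM in the other 23. Myl7, an atrial myosin light chain, ranged from 0 in FF_TAC 3 to 3188 CPM in KO_TAC 1. PBS_sham 3 had the lowest sum of 6 cardiomyocyte markers, 19525 CPM against 44020 to 59572 CPM elsewhere, and the highest sum of 5 smooth muscle markers, 1856 CPM. For many, but not all, results that rest on these libraries, values with and without them are given.

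Promoter sequences are shown for 4 genes that were each called lower in KO_TAC than in KO_sham, so that their start regions can be compared. Not all of the 4 were called against FF_TAC. Each is the 250 bases before the RefSeq start (GRCm38.p6), written in the direction of the gene. Capitals mark the GC box GGGCGG, the CACCC box CCACCC and the E-box CACGTG on either strand. Kcnd2 is at chr6:21215096-21215345 (plus strand), Kcnd3 at chr3:105451640-105451889 (plus strand), Kcnip2 at chr19:45816064-45816313 (minus strand) and Kcnj2 at chr11:111065914-111066163 (plus strand). Each window ends just before the annotated start, outside the transcript that begins there.
Kcnd2: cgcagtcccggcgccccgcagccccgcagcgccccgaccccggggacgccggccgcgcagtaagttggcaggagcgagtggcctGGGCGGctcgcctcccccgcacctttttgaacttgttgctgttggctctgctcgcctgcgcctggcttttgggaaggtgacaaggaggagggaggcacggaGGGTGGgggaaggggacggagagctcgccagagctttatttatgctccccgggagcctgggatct
Kcnd3: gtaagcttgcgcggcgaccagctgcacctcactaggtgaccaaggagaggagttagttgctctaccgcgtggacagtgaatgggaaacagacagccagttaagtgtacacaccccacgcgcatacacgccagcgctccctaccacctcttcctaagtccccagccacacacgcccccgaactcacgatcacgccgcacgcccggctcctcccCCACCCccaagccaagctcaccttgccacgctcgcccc
Kcnip2: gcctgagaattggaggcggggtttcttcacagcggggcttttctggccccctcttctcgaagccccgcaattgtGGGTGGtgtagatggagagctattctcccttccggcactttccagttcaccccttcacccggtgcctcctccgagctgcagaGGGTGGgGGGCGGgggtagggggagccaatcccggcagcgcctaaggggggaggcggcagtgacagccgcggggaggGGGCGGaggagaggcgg
Kcnj2: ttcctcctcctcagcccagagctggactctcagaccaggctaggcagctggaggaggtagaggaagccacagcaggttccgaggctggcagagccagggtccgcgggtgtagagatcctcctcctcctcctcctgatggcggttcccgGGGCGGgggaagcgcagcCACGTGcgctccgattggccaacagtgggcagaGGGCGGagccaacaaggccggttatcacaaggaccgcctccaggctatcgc
G and C made up 68.8% of the window in Kcnd2, 62.8% in Kcnd3, 66.8% in Kcnip2 and 65.6% in Kcnj2. The median was 52.4% over 32851 RefSeq promoters and 58.8% over the channel genes with a single RefSeq promoter. Not all genes that fell against KO_sham had such windows: Kcnj8 was at 49.2% and Kcna5 at 53.2%. Kcnj2 holds a CACGTG at base -84 and 2 GC boxes, and Kcnip2 holds 2 GC boxes and 2 CACCC boxes. RefSeq listed a promoter for 33 of the 48 genes and a single one for 26. Of those 26, 19 held CCACCC, compared with 28.1% of all promoters, and 12 held GGGCGG, compared with 32.7%. CACGTG was in 3 of the 26 (Kcne4, Kcnj2 and Kcnn4) and in 6.02% of all. None of the 26 held a TATA box (TATAAA, in 12.4% of all promoters), a GATA motif (AGATAA, in 9.99%) or a CRE (TGACGTCA, in 1.55%). None held a CArG box or a MEF2 motif, found in 1.47% and 2.92% of all, and the MEF2 motif can share letters with the TATA box. ACANNTGT, the letters bound by Iroquois factors, was in Kcna7 alone and in 6.31% of all. The matches describe these letters only.

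Levels between genes can be compared per length. As mean CPM per kb of exon over the 30 libraries, the highest was Kcnk3, a two-pore background channel, at 71.7. Kcnip2, the subunit that escorts transient outward channels to the membrane, followed at 48.1, Kcnj11, the pore of the cardiac ATP-sensitive channel, at 45.1, and Kcng2, a silent subunit that modifies other voltage-gated channels, at 34.8. Next came Kcnj8 (17.6), Kcnh2 (17.1), Kcnj3 (16), Kcnj5 (15.5), Kcnq1 (9.46) and Kcna5 (8.38). Kcnd2 stood at 3.57 and its relative Kcnd3 at 1.18. The lowest was Kcnc2 at 0.0834. The strand setting of the counting was not given, and exons of 15 of the 48 genes overlap a gene on the opposite strand. The overlap covers 39.6% of their length in Kcna6, 31.1% in Kcnj3 and 12.2% in Kcnk2, so the levels of such genes are uncertain. It is 5.76% in Kcnk3, 2.96% in Kcnq1 and 9.10% in Kcng2, where the opposite-strand genes had means of 25.5, 14.3 and 10.3 CPM. The plot of levels by role shows that each role spanned more than an order of magnitude, with 1 or a few genes far above the rest.

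**Figure D1:**
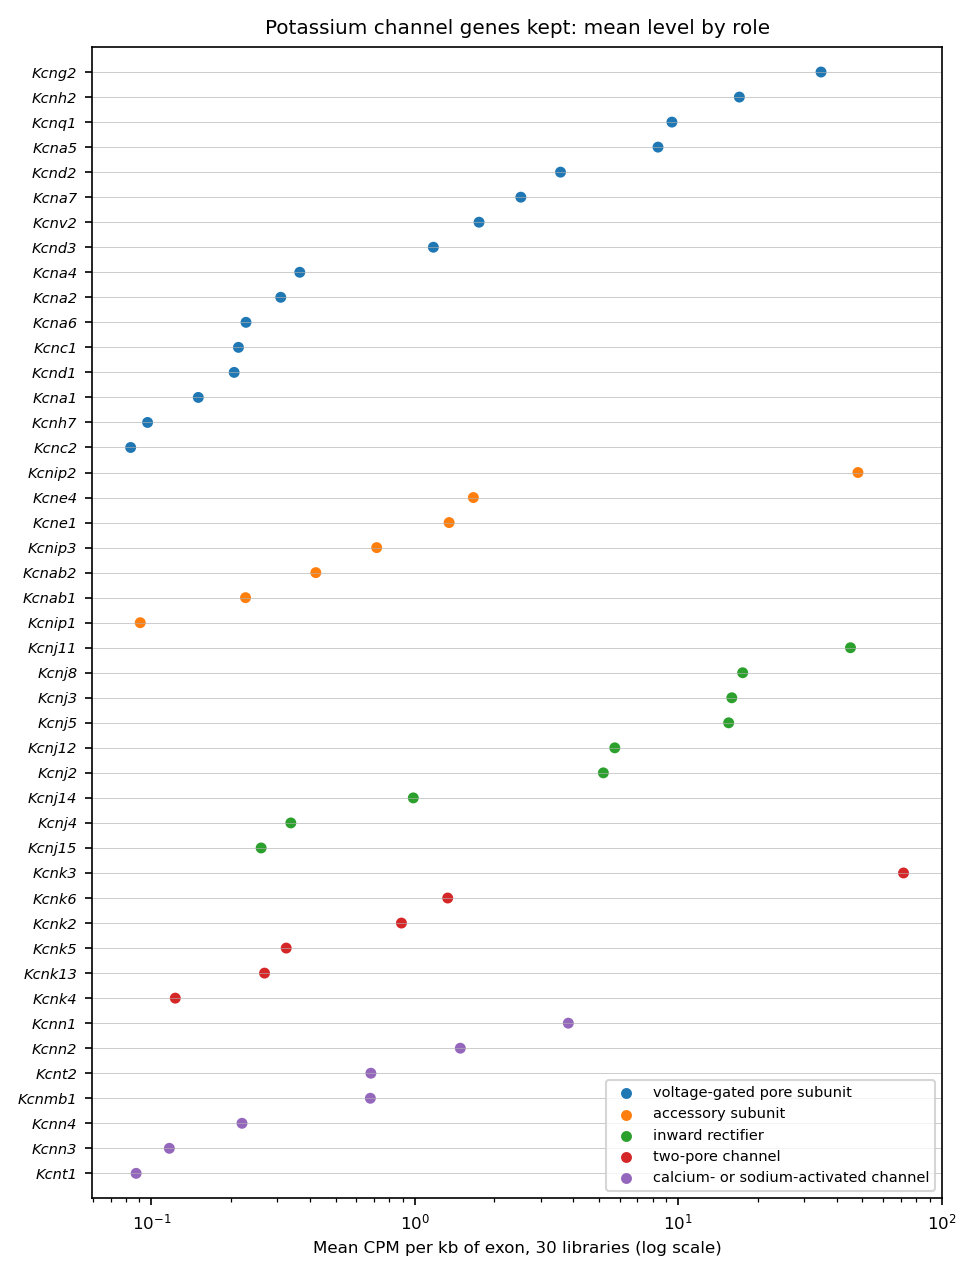
Mean level of 45 of the 48 potassium channel genes, as CPM per kb of exon over 30 libraries on a log axis, grouped and coloured by role. Kcnk3 (71.7), Kcnip2 (48.1), Kcnj11 (45.1) and Kcng2 (34.8) lie highest, and Kcnc2 (0.0834) lowest.

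The clearest differences were in the knockout hearts after TAC. Against KO_sham, 11 of 47 channel genes tested passed an adjusted p of 0.05 (edgeR). Kcnd2, Kcnd3, Kcna5, Kcnv2, Kcnip1, Kcnip2, Kcnj2, Kcnj8 and Kcnn2 were among those that fell, and Kcnj14 rose. The share of channel genes called, 23.4%, was close to the 25.8% of all 15596 genes tested. Split by direction, 10 of 47 fell (21.3%), where 11.5% of all genes did, and 1 of 47 rose (2.13%), where 14.3% of all genes did. The median log2 fold change was -0.34 over the channel genes and 0.02 over all genes. The channel median was -0.14 with a term for haemoglobin-low libraries and -0.74 without KO_TAC 1. By role, 5 of 18 voltage-gated pores, 2 of 7 accessory subunits, 2 of 9 inward rectifiers and 1 of 7 calcium- or sodium-activated channels fell, and none of 6 two-pore channels was called, with the lowest adjusted p among these at 0.0597 for Kcnk4.

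Against FF_TAC, 12 of 47 channel genes passed, where 14.3% of all genes did. The 4 called higher in KO_TAC (7.53% of all genes were called higher) included Kcne1, Kcnt2 and Kcnn4. The 8 called lower (6.80% of all genes were called lower) included Kcnn1, Kcnip2, Kcnj8, Kcna7, Kcnv2, Kcnip1 and Kcnn2. The median log2 fold change was -0.16 over the channel genes and 0.04 over all genes. The sign of the channel median depended on single libraries: it was -0.41 without KO_TAC 1, 0.036 without KO_TAC 3, 0.0095 without KO_TAC 4 and 0.017 without FF_TAC 1. With the haemoglobin term it was 0.0075, and with haemoglobin-low libraries alone 0.10. Both comparisons share the KO_TAC libraries, so their values are given side by side and are not independent of each other.

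All 4 KO_TAC libraries were among those low in haemoglobin, so this property and the group cannot be fully told apart. With a term for haemoglobin-low libraries, 1.75% of all genes and 2 channel genes were called against KO_sham. These were Kcnj2 (log2 fold change -1.20, adjusted p = 0.0479) and Kcnip1 (-2.05, adjusted p = 0.0437). The other 9 kept their direction, from -2.37 for Kcnv2 to 1.76 for Kcnj14, with adjusted p from 0.0902 to 0.383. Against FF_TAC the same term left 7.23% of all genes and 6 channel genes. Kcnn1, Kcnj8, Kcne1 and Kcnip1 were among those that remained, and Kcnq1 was added at 0.46 (adjusted p = 0.0467). The 7 genes whose calls were lost kept their direction, with adjusted p from 0.0730 to 0.186. With haemoglobin-low libraries alone, 4 of KO_TAC against 2 labelled FF_TAC, edgeR called 0 of 48 channel genes and 0% of all genes. At an unadjusted p under 0.05 there were 8 of the 48, and 9.62% of all genes. The part of haemoglobin content and of the early-response genes in these results was not tested beyond these fits.

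KO_TAC 1 stood apart from the other 3 KO_TAC libraries in its atrial markers: Myl7, Myl4, Sln and Bmp10 together came to 8591 CPM there and to 3.69 to 6.69 CPM in the rest. A further atrial marker, Nppa, which ventricles also express under load, was at 8862 CPM there and 4574 to 8785 CPM in the rest. Without KO_TAC 1, 23 of 48 channel genes were called against KO_sham, with 40.8% of all genes called. Of these, 22 channel genes were lower, where 3123 of 15802 genes were called lower. Against FF_TAC, 18 of 48 were called without KO_TAC 1, with 24.3% of all genes called. The libraries in which Myl7 was under 100 CPM were 2 of KO_sham, 3 of KO_TAC and 4 of FF_TAC, and leave out the library labelled KO_sham 2. With these alone, 13 of 47 channel genes were called against KO_sham (20.9% of all genes) and 16 of 47 against FF_TAC (20.2%). Without KO_TAC 3 the counts were 6 and 5, with 12.3% and 7.59% of all genes called. Without the library labelled KO_sham 2, 9 were called against KO_sham (20% of all genes). Against FF_TAC, the count was 5 without FF_TAC 1 (8.65% of all genes), 17 without FF_TAC 2 (17.5%) and 4 without FF_TAC 4 (7.06%).

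**Figure D2:**
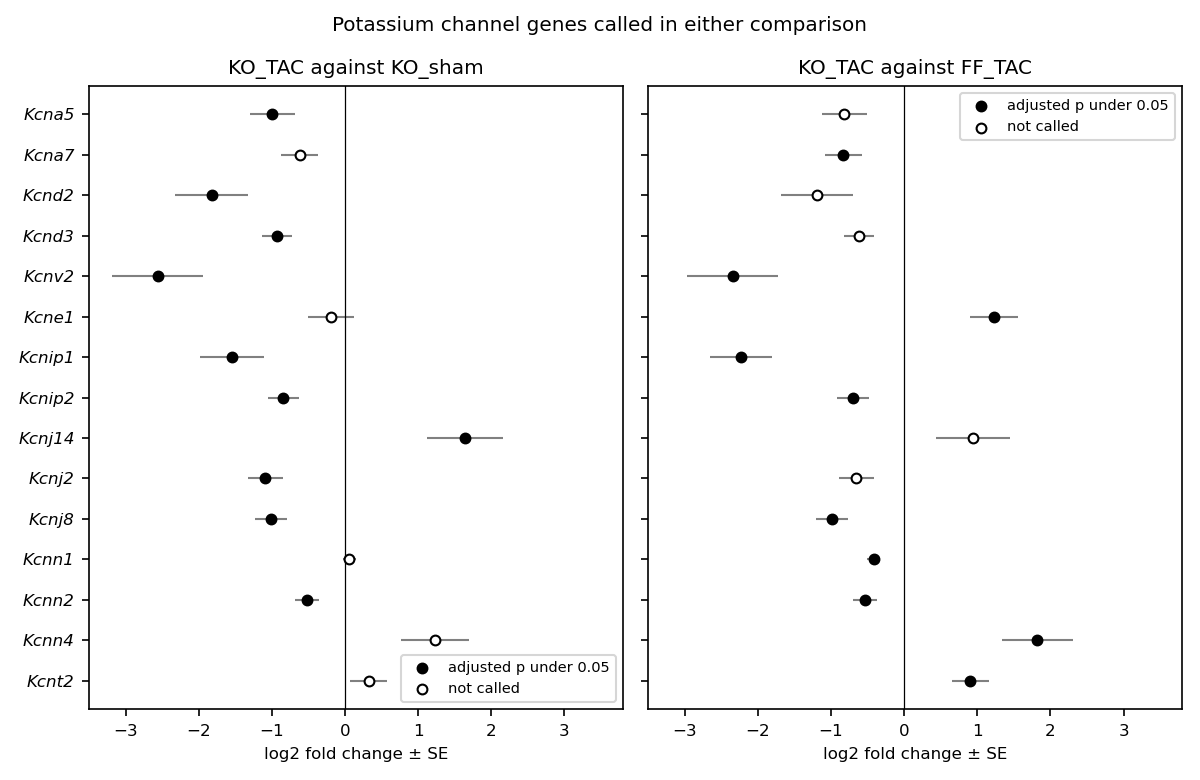
Log2 fold change with its SE of 15 of the 17 channel genes called in KO_TAC against KO_sham (left) or against FF_TAC (right). Filled points passed an adjusted p of 0.05, open points did not. Kcnv2 (-2.56 and -2.34) lies farthest to the left in both. Kcnj14 is called to the right against KO_sham (1.64) and Kcnn4 against FF_TAC (1.82).

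The transient outward current of mouse ventricle is carried by channels built from Kcnd2 and Kcnd3 with Kcnip2. Kcnd2, the main pore subunit, was at 12.4, 2.58, 2.19 and 6.30 CPM in KO_TAC and at 17.4, 27.5, 24.1 and 16.7 CPM in KO_sham. The groups did not overlap, and Kcnd2 fell by 1.83 ± 0.50 (SE, n = 4 per group) on the log2 scale, 3.54-fold (adjusted p = 0.0171). In FF_TAC it was at 25.5, 11.2, 7.30 and 11 CPM, and in FF_sham at 12.9 to 36.0 CPM, so the floxed groups overlapped. The log2 fold change was -0.77 ± 0.48 for FF_TAC against FF_sham (adjusted p = 0.545) and -1.19 ± 0.49 for KO_TAC against FF_TAC (adjusted p = 0.116). With Myl7-low libraries alone the latter was called at -1.87 (adjusted p = 0.0269). The call against KO_sham was lost without KO_TAC 3 (-1.55, adjusted p = 0.0535). Of the other haemoglobin-low libraries, that labelled KO_sham 2 had the highest Kcnd2 of its group, and that labelled FF_TAC 3 the lowest.

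Kcnd3 was at 8.83, 3.95, 4.67 and 7.26 CPM in KO_TAC, below all 4 KO_sham libraries (10.6 to 13.2 CPM), and fell by 0.93 ± 0.21 on the log2 scale (adjusted p = 0.00713). In FF_TAC it was at 7.85 to 11.4 CPM. Kcnip2, far more abundant, was at 85.5, 89.9, 106 and 156 CPM in KO_TAC, and at 194 to 211 CPM in KO_sham. It fell by 0.84 ± 0.22 on the log2 scale (adjusted p = 0.0138), with no overlap between the groups. Its range in FF_TAC, 133 to 254 CPM, overlapped KO_TAC. The call against FF_TAC (-0.70 ± 0.22, adjusted p = 0.0421) was lost without FF_TAC 1, FF_TAC 4, KO_TAC 1, KO_TAC 2 or KO_TAC 3 (-0.73 to -0.51, adjusted p 0.0639 to 0.142). Against KO_sham, Kcnd3 and Kcnip2 were called in all 8 fits that left out 1 library, but Kcnip2 was not called with Myl7-low libraries alone (-0.73, adjusted p = 0.0548, and -0.61, adjusted p = 0.0633, against FF_TAC). Kcnip1, a relative of Kcnip2 better known in neurons, was near the detection limit, with 2 to 5 counts in each KO_TAC library, 8 to 15 in KO_sham and 9 to 22 in FF_TAC. Its CPM did not overlap either group, and it fell by 1.55 ± 0.43 against KO_sham (adjusted p = 0.0196) and was lower by a log2 fold change of -2.24 ± 0.42 against FF_TAC (adjusted p = 0.00361). The call against KO_sham was lost without KO_sham 2 or KO_TAC 3 (-1.35 to -1.32, adjusted p 0.0522 to 0.0680) and with Myl7-low libraries alone (-1.57, adjusted p = 0.0617).

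**Figure D3:**
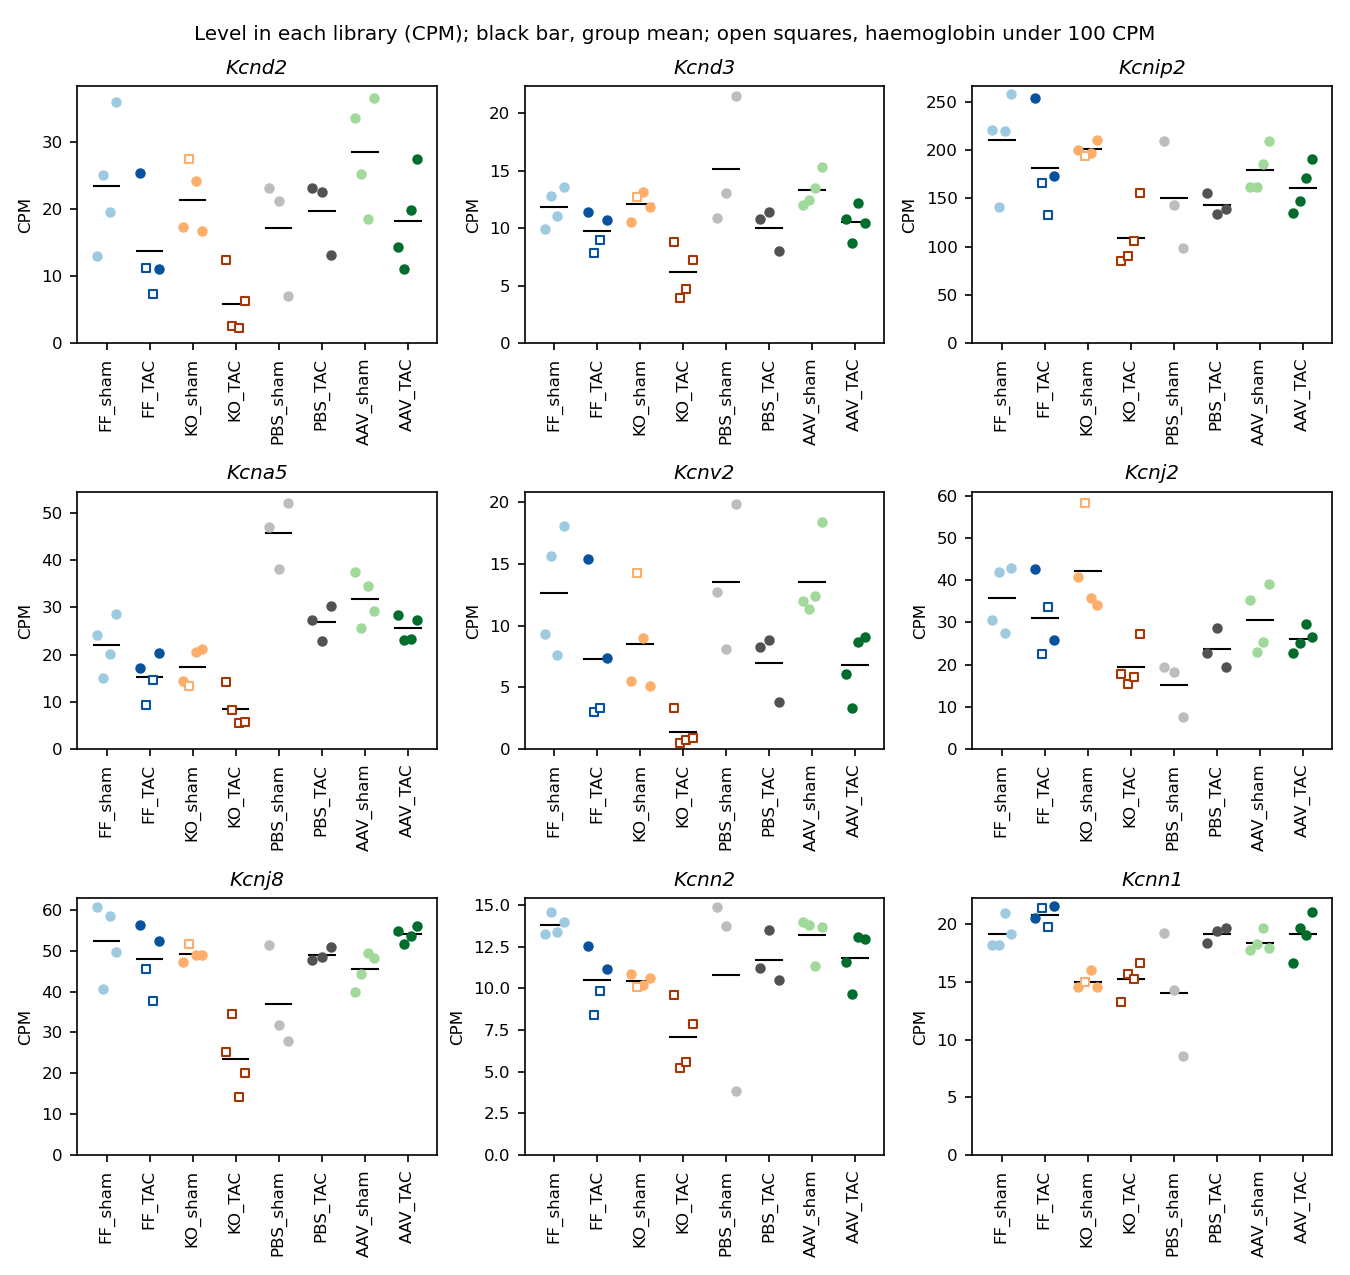
Level of 9 channel genes in each library, as CPM on TMM-scaled libraries, by group. Points are libraries, open squares are those with haemoglobin under 100 CPM, and black bars are group means. For Kcnd2, Kcnd3, Kcnip2, Kcnv2, Kcnj2, Kcnj8 and Kcnn2 all KO_TAC libraries lie below all KO_sham libraries, and for Kcnn1 both knockout groups lie below both floxed groups.

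Kcnv2 encodes a silent subunit that joins other voltage-gated subunits and changes their gating, and it showed the largest fall among the 11 genes called against KO_sham. KO_TAC libraries held 3.29, 0.502, 0.731 and 0.908 CPM, and KO_sham libraries 5.50, 14.3, 9 and 5.13 CPM. Kcnv2 fell by 2.56 ± 0.62 on the log2 scale, 5.91-fold (adjusted p = 0.0108). Against FF_TAC (15.4, 3, 3.31 and 7.38 CPM) the log2 fold change was -2.34 ± 0.62 (adjusted p = 0.0214), with KO_TAC 1 inside the FF_TAC range. That call was lost without FF_TAC 1, FF_TAC 4, KO_TAC 2 or KO_TAC 3 (-2.35 to -1.68, adjusted p 0.0503 to 0.0874). In the AAV9 cohort, Kcnv2 was at 3.32 to 9.10 CPM in AAV_TAC and at 11.3 to 18.4 CPM in AAV_sham, which did not overlap, but the test did not pass (-1 ± 0.36, unadjusted p = 0.0150, adjusted p = 0.520).

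Kcna5, a pore of the fast delayed rectifier current, was at 14.3, 8.18, 5.51 and 5.81 CPM in KO_TAC and at 13.3 to 21.2 CPM in KO_sham. KO_TAC 1 lay inside the KO_sham range. Kcna5 fell by 0.99 ± 0.31 on the log2 scale (adjusted p = 0.0288), a call lost without KO_sham 3, KO_sham 4, KO_TAC 2, KO_TAC 3 or KO_TAC 4 (-1 to -0.84, adjusted p 0.0614 to 0.0924).

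Kcna7, a pore of heart and skeletal muscle, was lower in KO_TAC (4.79, 1.65, 2.47 and 4.90 CPM) than in FF_TAC (5.21 to 7.10 CPM), with a log2 fold change of -0.83 ± 0.25 (adjusted p = 0.0386). The call was lost without FF_TAC 1, FF_TAC 3, FF_TAC 4, KO_TAC 2 or KO_TAC 3 (-0.83 to -0.63, adjusted p 0.0658 to 0.119).

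Kcnq1 and Kcne1 together form the slow delayed rectifier channel. Kcnq1, the pore, was at 47.7, 35.4, 41.0 and 42.6 CPM in KO_TAC, at 37.8 to 51.2 CPM in KO_sham and at 29.5 to 41.6 CPM in FF_TAC. No comparison called it in the fit without a haemoglobin term: the log2 fold change was -0.03 ± 0.13 against KO_sham (adjusted p = 0.863) and 0.31 ± 0.13 against FF_TAC (adjusted p = 0.120). Kcne1, its accessory subunit, was at 4.64 to 5.90 CPM in KO_TAC and at 1.07, 1.41, 2.62 and 3.75 CPM in FF_TAC, without overlap. The log2 fold change was 1.23 ± 0.32 (adjusted p = 0.0202), a call lost without FF_TAC 1 or KO_TAC 3 (0.99 to 1.15, adjusted p 0.0552 to 0.0615). In the 2 sham groups of the floxed cohort Kcne1 was at 3.89 to 7.44 CPM, so FF_TAC was the low group of that cohort. Kcne4, an inhibitory relative, was at 14.2 CPM in KO_TAC 1, 9.56 CPM in the library labelled KO_sham 2 and 2.18 to 6.99 CPM in the other 14 floxed libraries, and was not called.

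Among the inward rectifiers, Kcnj2 forms the channel that sets the resting potential of ventricular cells. KO_TAC libraries held 17.8, 15.4, 17.0 and 27.4 CPM, below all KO_sham libraries at 40.7, 58.4, 35.8 and 34.0 CPM. Kcnj2 fell by 1.09 ± 0.24 on the log2 scale, 2.13-fold (adjusted p = 0.00661), and was called in all 8 fits that left out 1 library and with the haemoglobin term. Against FF_TAC (42.7, 22.6, 33.6 and 25.8 CPM) the groups overlapped, and the log2 fold change was -0.65 ± 0.24 (adjusted p = 0.0780). Kcnj2 was called there with DESeq2 (-0.66, adjusted p = 0.0498), without the library labelled FF_TAC 2 (-0.79, adjusted p = 0.0396) and without KO_TAC 4 (-0.86, adjusted p = 0.0276). The knockout by TAC interaction was -0.90 ± 0.34 (unadjusted p = 0.0172, adjusted p = 0.269), so a difference in the TAC effect between genotypes was not called. Kcnj12, its partner in the same current, was at 9.38 to 16.3 CPM in KO_TAC and 13.9 to 17.8 CPM in KO_sham (-0.37 ± 0.17, adjusted p = 0.112). Kcnj14, a less known member of the same family, rose against KO_sham by 1.64 ± 0.52 (adjusted p = 0.0329). It was at 9.32, 8.26 and 7.99 CPM in KO_TAC 2, 3 and 4 but at 1.55 CPM in KO_TAC 1, inside the KO_sham range of 0.674 to 3.02 CPM. Its call was lost in 7 of 8 fits that left out 1 library, all but the one without KO_TAC 1 (1.34 to 1.80, adjusted p 0.0528 to 0.0903 in the 7).

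ATP-sensitive channels join the pore Kcnj11 or Kcnj8 with a sulfonylurea receptor, Abcc8 or Abcc9. Kcnj8, the pore prominent in vessels and pericytes, was at 25.3, 34.6, 14.2 and 20.0 CPM in KO_TAC, below KO_sham (47.2 to 51.6 CPM) and FF_TAC (37.8 to 56.4 CPM). It fell by 1.02 ± 0.22 against KO_sham (adjusted p = 0.00630), and the log2 fold change against FF_TAC was -0.99 ± 0.22 (adjusted p = 0.00925). Each call held in all 8 fits that left out 1 library. Abcc9 was at 95.5, 66.3, 78.5 and 157 CPM in KO_TAC, 243 to 302 CPM in KO_sham and 169 to 248 CPM in FF_TAC, and was lower in both comparisons (-1.39 ± 0.22, adjusted p = 0.00137, and -1.08 ± 0.22, adjusted p = 0.00500). The 5 pericyte markers summed to 494 to 770 CPM in KO_TAC, 710 to 948 CPM in KO_sham and 715 to 951 CPM in FF_TAC, and 5 endothelial markers to 517 to 772, 673 to 960 and 681 to 928 CPM. Their part in the Kcnj8 and Abcc9 results was not tested. Kcnj11 was at 119 to 147 CPM in KO_TAC, 138 to 170 CPM in KO_sham, 137 to 191 CPM in FF_TAC and 189 to 211 CPM in FF_sham. None of its comparisons passed, although KO_sham lay wholly below FF_sham (-0.38 ± 0.11, unadjusted p = 0.00404, adjusted p = 0.820).

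Kcnj3 and Kcnj5 form the acetylcholine-activated channel, which is richest in the atria. Kcnj3 was at 308 CPM in KO_TAC 1 and at 13.7, 12.5 and 18.3 CPM in the other KO_TAC libraries. The 11 libraries with Myl7 of at least 100 CPM held 32.9 to 308 CPM of Kcnj3, and the 19 with less held 12.5 to 84.1 CPM. With all libraries the log2 fold change against KO_sham was -0.08 ± 0.85 (adjusted p = 0.951), and with Myl7-low libraries alone it was -1.91 (adjusted p = 0.00621). Against FF_TAC it was 0.79 ± 0.86 (adjusted p = 0.557) with all libraries and -1.77 (adjusted p = 0.00328) with Myl7-low libraries alone, where its sign changed. Without KO_TAC 1 these were -2.64 (adjusted p = 0.00199) and -1.77 (adjusted p = 0.0206). Kcnj5 was at 138 CPM in KO_TAC 1 and at 30.2, 36.6 and 38.1 CPM in the other KO_TAC libraries, against 80.7 to 105 CPM in KO_sham. Its log2 fold change against KO_sham went from -0.54 ± 0.40 (adjusted p = 0.330) to -1.19 (adjusted p = 0.0101) with Myl7-low libraries alone. Kcnh2, the rapid delayed rectifier pore, went from -0.60 ± 0.26 (adjusted p = 0.0995) to -0.95 (adjusted p = 0.0222). Without KO_TAC 1, Kcnj5 was at -1.33 (adjusted p = 0.00207) and Kcnh2 at -0.97 (adjusted p = 0.00347). Atrial tissue content was measured here only through its markers, and its part in these values was not tested beyond the fits given.

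**Figure D4:**
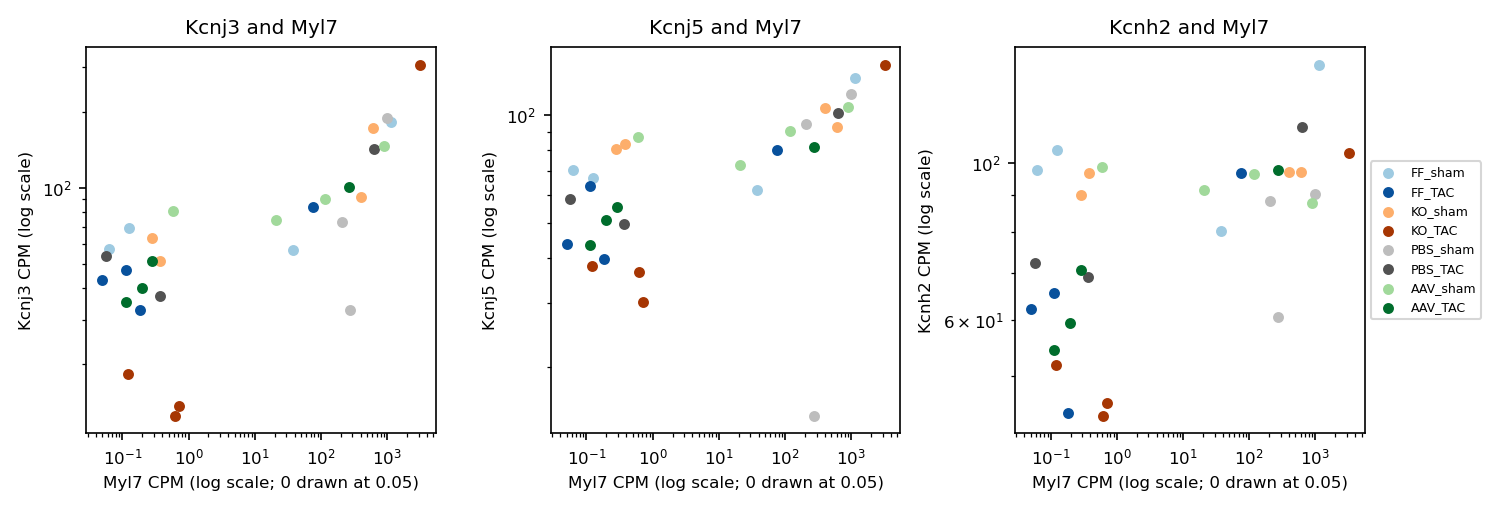
Level of Kcnj3, Kcnj5 and Kcnh2 against Myl7 in each of 30 libraries, all in CPM on log axes, coloured by group (a Myl7 of 0 is drawn at 0.05). KO_TAC 1 is the rightmost point, with Kcnj3 at 308 CPM, and the other KO_TAC libraries lie at the bottom left with Kcnj3 at 12.5 to 18.3 CPM.

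The two-pore channels carry background potassium current. Kcnk3 was at 215 to 363 CPM in KO_TAC, 260 to 298 CPM in KO_sham and 258 to 325 CPM in FF_TAC, and its log2 fold changes were 0.05 ± 0.14 and 0.01 ± 0.14. Kcnk2, a stretch-sensitive channel, was at 3.19 to 6.36 CPM in KO_TAC and 3.4 to 3.98 CPM in KO_sham, and Kcnk6 at 2.14 to 8.63 and 4.22 to 8.28 CPM. No two-pore channel was called in either comparison.

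Small-conductance calcium-activated channels include Kcnn1 and Kcnn2. Kcnn1 libraries of both knockout groups lay below those of both floxed groups: it was at 13.2, 15.7, 15.3 and 16.6 CPM in KO_TAC and 14.5 to 16 CPM in KO_sham, below FF_TAC (19.8 to 21.6 CPM) and FF_sham (18.2 to 21.0 CPM). It was called against FF_TAC (-0.42 ± 0.09, 1.34-fold, adjusted p = 0.00763), in all 8 fits that left out 1 library and with the haemoglobin term. KO_sham against FF_sham gave -0.35 ± 0.09 (unadjusted p = 0.00131), which did not pass over all genes (adjusted p = 0.798), and the knockout by TAC interaction was -0.06 ± 0.13 (adjusted p = 0.847). In the AAV9 cohort Kcnn1 was at 8.55 CPM in PBS_sham 3 and 14.3 to 21.1 CPM in the other 13 libraries. Kcnn2, the atrial-rich relative, was at 9.58, 5.24, 5.57 and 7.87 CPM in KO_TAC and fell against KO_sham (10.1 to 10.8 CPM) by 0.53 ± 0.16 (adjusted p = 0.0298). Against FF_TAC (8.40 to 12.6 CPM) it was lower by a log2 fold change of -0.54 ± 0.16 (adjusted p = 0.0402). The first call was lost without any 1 of the 4 KO_sham libraries, KO_TAC 2 or KO_TAC 3 (-0.55 to -0.43, adjusted p 0.0510 to 0.101). The second was lost without FF_TAC 1, FF_TAC 3, FF_TAC 4, KO_TAC 2 or KO_TAC 3 (-0.57 to -0.44, adjusted p 0.0539 to 0.125).

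Kcnn4, the intermediate-conductance channel of immune cells and fibroblasts, was higher in KO_TAC (4.99, 3.01, 1.69 and 2.78 CPM) than in FF_TAC (0.620, 1.65, 1.06 and 0.284 CPM). The groups did not overlap, and the log2 fold change was 1.82 ± 0.49 (adjusted p = 0.0222), a call lost without FF_TAC 1 or FF_TAC 4 (1.51 to 1.67, adjusted p 0.0691 to 0.0696). Against KO_sham, 0.490 to 1.99 CPM, it was 1.23 ± 0.47 (adjusted p = 0.0639). The 5 fibroblast markers summed to 1287 to 1466 CPM in KO_TAC, 746 to 852 CPM in FF_TAC and 695 to 965 CPM in KO_sham, and the 8 immune markers to 234 to 309, 160.5 to 193 and 202 to 465.9 CPM. Kcnt2, a sodium-activated channel, was at 9.18, 3.73, 5.45 and 6.54 CPM in KO_TAC and 3.18 to 3.93 CPM in FF_TAC (0.91 ± 0.26, adjusted p = 0.0297). Its call was lost without FF_TAC 1, FF_TAC 4, KO_TAC 1 or KO_TAC 3 (0.65 to 0.97, adjusted p 0.05 to 0.0896) and with Myl7-low libraries alone (0.66, adjusted p = 0.0518). The part of fibroblast and immune content in the Kcnn4 and Kcnt2 results was not tested.

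Partner genes of these channels were followed as a list of 28, of which 24 were tested in the floxed cohort. Their values are from the fit with all libraries and no haemoglobin term, and other fits are not given for them. Against KO_sham, 2 were higher in KO_TAC, among them Slc12a4 at 0.44 ± 0.13, and 6 were lower, where 25.8% of all genes were called. The lower ones included Abcc9, Klf15 (-0.78 ± 0.16), Lrrc52 (-1.49 ± 0.50) and Amigo1 (-0.71 ± 0.25). Against FF_TAC, 4 of the 24 were lower, among them Abcc9, Klf15 (-0.55 ± 0.16) and Lrrc52 (-2.01 ± 0.49), and none was higher, where 14.3% of all genes were called. Klf15, a transcription factor known to drive Kcnip2 in the mouse heart, was at 21.2 to 31.1 CPM in KO_TAC, 41.3 to 51.5 CPM in KO_sham and 32.2 to 50 CPM in FF_TAC. The median log2 fold change of the 24 was -0.16 and -0.08 in the 2 comparisons. None of the 24 was called in the other 8 comparisons.

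In floxed mice TAC alone called no channel gene by edgeR with all libraries. FF_TAC against FF_sham gave 0 calls among 47 with edgeR (0% of all genes), 11 with an unadjusted p under 0.05 (11.1% of all genes), and 2 with DESeq2 (1% of all genes), among them Kcne1. Kcne1 was at 1.07 to 3.75 CPM and 3.89 to 7.32 CPM (-1.15 ± 0.32, adjusted p = 0.328), without overlap. Kcnk2 was at 3.21, 7.48, 7.12 and 5.39 CPM in FF_TAC and 2.02 to 4.23 CPM in FF_sham (0.84 ± 0.28, adjusted p = 0.352). Its 2 highest values were those of the haemoglobin-low libraries labelled FF_TAC 2 and FF_TAC 3. With the haemoglobin term, edgeR gave an unadjusted p under 0.05 for 3 of 47 channel genes and for 500 of 15596 genes in FF_TAC against FF_sham.

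The knockout without TAC called none either. For KO_sham against FF_sham, edgeR gave 0 of 47 (0% of all genes), 6 with an unadjusted p under 0.05 (5.22% of all genes), and DESeq2 gave 0 (0.0209% of all genes). Kcnn1 and Kcnj11, described above, and Kcnn2 had the smallest p-values. Kcnn2 was at 10.1 to 10.8 CPM in KO_sham and 13.3 to 14.6 CPM in FF_sham (-0.41 ± 0.16, adjusted p = 0.916). For the knockout by TAC interaction, which asks whether TAC acted differently in the 2 genotypes, edgeR gave 0 of 47 (0.0449% of all genes), 7 with an unadjusted p under 0.05 (13.1% of all genes), and DESeq2 gave 2 (2.50% of all genes), among them Kcnip1. Its edgeR value was -2.37 ± 0.57 (adjusted p = 0.111), and Kcnj8 was at -0.89 ± 0.31 (adjusted p = 0.227). By edgeR, then, no channel gene's fall listed above in KO_TAC was shown to differ from the response of floxed hearts. By DESeq2, among the channel genes that fell, Kcnip1 alone was (-2.41, adjusted p = 0.0436). The partner gene Abcc9 had an edgeR interaction of -1.25 ± 0.30 (unadjusted p = 0.00085, adjusted p = 0.111), and DESeq2 values are not given for partner genes.

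In the AAV9 cohort no channel gene was called by edgeR, with all libraries and the low-count filter, in any of 5 comparisons. The share of all genes called was 0.0318% for PBS_TAC against PBS_sham, 0.00635% for AAV_TAC against AAV_sham, 0.0127% for AAV_sham against PBS_sham, 0.0381% for AAV_TAC against PBS_TAC and 0.00635% for the vector by TAC interaction. At an unadjusted p under 0.05 there were, in the same order, 14 of 48 channel genes (18.5% of all genes), 4 (7.05%), 13 (20.7%), 2 (3.19%) and 5 (6.95%). DESeq2 called 3 (1.99% of all genes), 0 (0.563%), 1 (1.75%), 0 (0.122%) and 0 (0.108%) in the same order.

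PBS_sham 3 was the lowest of all 30 libraries for 15 channel genes and the highest for 16. Kcnj11 was at 26.2 CPM there and 119 to 217 CPM in the other 29 libraries, Kcng2 at 22.7 against 88.5 to 145 CPM, and Kcnq1 at 8.01 against 29.5 to 51.2 CPM. Among the high ones, Kcnmb1, a smooth muscle subunit, was at 16 CPM against 0.758 to 3.60 CPM, and Kcna2, a channel of myelinated axons, at 14.9 against 0.312 to 6.75 CPM. Kcnj8, the vessel and pericyte pore, was at 27.9 CPM, the lowest of its group.

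Against that background, Kcna5 was at 27.4, 22.9 and 30.3 CPM in PBS_TAC and 47.1, 38.2 and 52.1 CPM in PBS_sham, without overlap (-0.81 ± 0.17, adjusted p = 0.108). Without PBS_sham 3 it was -0.66 (adjusted p = 0.0905). Kcnk5 was at 0.687 to 1.02 CPM and 1.36 to 3.08 CPM (-1.65 ± 0.34, adjusted p = 0.107, and -1.41, adjusted p = 0.0981, without PBS_sham 3). Kcnc1 was at 2.62 to 3.83 CPM and 0.181 to 1.36 CPM (1.94 ± 0.46, adjusted p = 0.131, and 1.43, adjusted p = 0.0650). DESeq2 called these 3 genes. Without PBS_sham 1, which leaves PBS_sham 3 as 1 of 2 controls, edgeR called 10 channel genes here (11.1% of all genes) and 11 in AAV_sham against PBS_sham (17.4%).

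The vector comparisons called no channel gene by edgeR with all libraries and the low-count filter. In AAV_sham against PBS_sham, Kcnmb1 was at 1.48 to 1.66 CPM and 2.24 to 16 CPM (-2.19 ± 0.55, adjusted p = 0.131), and without PBS_sham 3 at -0.52 (adjusted p = 0.341). With no filter, edgeR called Kcnmb1 there (-2.15, adjusted p = 0.0335). Kcnj2 was at 22.9 to 39.0 CPM and 7.50 to 19.5 CPM, without overlap (1.02 ± 0.27, adjusted p = 0.131, and 0.71, adjusted p = 0.259, without PBS_sham 3), and DESeq2 called it. Kcna5 was at 25.7 to 37.5 CPM against 38.2 to 52.1 CPM (-0.56 ± 0.16, adjusted p = 0.143). In AAV_TAC against PBS_TAC, Kcnip1 (-1.27 ± 0.48), Kcnj4 (1.17 ± 0.52) and Kcnj14 (0.95 ± 0.52) had the smallest p-values, each with an adjusted p of 1. The vector by TAC interaction was led by Kcnj15 (1.64 ± 0.53), Kcnmb1 (2.36 ± 0.80) and Kcnab1 (1.73 ± 0.73), each with an adjusted p of 0.688. Without PBS_sham 3 these 3 were at 1.11, 0.68 and 0.66.

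In AAV_TAC against AAV_sham, Kcnj14 was at 2.03, 6.93, 2.22 and 2.23 CPM and 0.710 to 2.09 CPM (1.43 ± 0.49, adjusted p = 0.479), and at 0.80 without AAV_TAC 2. Kcnk5 was at 0.644 to 1.09 CPM and 1.32 to 1.79 CPM (-0.77 ± 0.30, adjusted p = 0.592). With only the libraries in which Myl7 was under 100 CPM, 3 of AAV_TAC and 2 of AAV_sham (1.05% of all genes called), 3 channel genes fell: Kcnj3 by 0.89 (adjusted p = 0.0449), Kcnj5 by 0.68 (adjusted p = 0.0424) and Kcnh2 by 0.64 (adjusted p = 0.0351). With all libraries these were -0.79 ± 0.51, -0.62 ± 0.43 and -0.42 ± 0.20, with adjusted p of 0.849, 0.868 and 0.714. AAV_TAC 3, left out of that fit, held 269.5 CPM of Myl7 and the highest Kcnj3 of its group, 100.4 CPM.

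Kcnd2, Kcnj2 and Kcnq1 were thus followed over all 8 groups. Kcnd2 had means of 23.4 ± 9.76, 13.7 ± 8.03, 21.4 ± 5.28 and 5.86 ± 4.72 CPM (SD) in FF_sham, FF_TAC, KO_sham and KO_TAC. In PBS_sham, PBS_TAC, AAV_sham and AAV_TAC it had 17.1 ± 8.84, 19.7 ± 5.59, 28.5 ± 8.27 and 18.2 ± 7.20 CPM. KO_TAC, at 2.19 to 12.4 CPM, overlapped FF_TAC, at 7.30 to 25.5 CPM, but neither FF_sham nor KO_sham. The ranges of any other 2 of these groups in the same cohort overlapped. Kcnj2 ranged from a mean of 15.1 ± 6.61 CPM in PBS_sham to 42.3 ± 11.1 CPM in KO_sham, and Kcnq1 from 30.1 ± 19.4 CPM in PBS_sham to 43.8 ± 5.81 CPM in KO_sham. Without PBS_sham 3 the PBS_sham means were 22.2 CPM for Kcnd2, 18.9 CPM for Kcnj2 and 41.1 CPM for Kcnq1, and the lowest Kcnq1 mean was then that of FF_TAC at 34.5 ± 5.30 CPM.

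A further 10 channel genes were each at a mean of 0.720 to 2.54 CPM: Kcna1, Kcna4, Kcna6, Kcnd1, Kcnh7, Kcnab2, Kcnip3, Kcnk13, Kcnn3 and Kcnt1. None of them was called in any comparison by edgeR with all libraries.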

How the data were processed

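Heart RNA was read as poly(A) libraries with a strand-specific kit, per the labels' protocols. The authors deposited gene counts as whole numbers, 1 column per library, made with HISAT2 2.1.0 and featureCounts of Subread 1.5.1 on GRCm38, per the submitters' processing notes. The annotation release and the strand setting were not given in the sources used here. Symbols were found for 55141 of 55487 gene IDs, and those without one held 0.0192% of all counts. Groups came from the genotype and treatment labels, since the titles of the KO_TAC libraries carry both the words TAC and Sham.

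The 2 cohorts were modelled separately with edgeR 4.0.16 in R 4.3.3 (quasi-likelihood F test, TMM scaling, low-count filter), with Benjamini-Hochberg adjustment over all genes tested and a call at an adjusted p under 0.05. Levels are CPM on TMM-scaled library sizes, and membership used CPM of the library total. Each SE is the size of the edgeR log2 fold change divided by the square root of its F statistic. It thus rests on the spread fitted over all libraries of the cohort, not only on the groups compared. Alternatives were DESeq2 1.42.0, its size factors in edgeR, no filter, a replicate block, a haemoglobin term, a Myl7 covariate and each library left out. Fits on haemoglobin-high or haemoglobin-low libraries, or on libraries with Myl7 under 100 CPM, were chosen after seeing the data. The code was tested on simulated data.

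The channel genes and lists were chosen with earlier results of these data known. Genes were named with values where any comparison called them, where a group mean reached 5 CPM, as the 3 smallest p-values where a comparison called none, or as Kcnd2, Kcnj2 and Kcnq1. Replicate numbers were not treated as pairs in the main fits. Over 43 same-numbered pairs the correlation of deviations from the group means ran from -0.41 to 0.45, and 16 pairs were over 0.1. Over differently numbered pairs it ran from -0.45 to 0.55, and the difference between the 2 kinds of pair was not tested. The study's miR370 work was not analysed here, and some genes that the rule names are not reported here, although counts over lists include them.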

Additional observations from a re-analysis of the deposited data

Results flagged for a closer look

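In groups of 4 libraries, the highest or lowest library was set against the other 3, and 19 of 198 such groups had a gap to the nearest library, as a share of the group's range, above Dixon's critical value. Chance flags about 1 in 20 groups, but the groups share libraries and are not independent, and whether 19 is more than chance gives was not tested.

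KO_TAC 1 stood above the other KO_TAC libraries for 5 genes. It held 103 CPM of Kcnh2 (44.0 to 51.8 in the others), 308 CPM of Kcnj3 (12.5 to 18.3), 138 CPM of Kcnj5 (30.2 to 38.1), 2.40 CPM of Kcnk5 (0.215 to 0.424) and 3.29 CPM of Kcnv2 (0.502 to 0.908). FF_sham 2 held 183 CPM of Kcnj3 (56.6 to 69.4), 127 CPM of Kcnj5 (61.8 to 70.5) and 4.31 CPM of Kcnt2 (2.90 to 3.06). These libraries held 3188 and 1137 CPM of Myl7, the 2 highest values of the 30.

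The library labelled KO_sham 2 was high in Kcne4 at 9.56 CPM (2.18 to 3.23) and low in Kcng2 at 88.5 CPM (105 to 108). KO_sham 4 was high in Kcna2 at 6.75 CPM (3.08 to 3.68). KO_sham 1 was low in Kcnh2 at 90.3 CPM (96.7 to 97.1). FF_sham 3 was high in Kcnc1 at 3.13 CPM (0.672 to 1.06), FF_sham 1 in Kcne1 at 7.32 CPM (3.89 to 4.29) and the library labelled FF_TAC 3 in Kcnt2 at 3.93 CPM (3.18 to 3.27).

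In the AAV9 cohort, AAV_TAC 2 was high in Kcnj14 at 6.93 CPM (2.03 to 2.23) and AAV_sham 4 in Kcnv2 at 18.4 CPM (11.3 to 12.4). AAV_TAC 3 was low in Kcnip1 at 0.124 CPM (0.394 to 0.427) and AAV_sham 3 in Kcnn2 at 11.3 CPM (13.7 to 14).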

How the results depend on the processing

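Of 904 values under alternatives, nearly all log2 fold changes of named genes, 769 kept their direction and their side of the threshold. A further 89 lost a call, 35 gained one and 11 changed sign. The 904 and the 769 also include the number of channel genes kept under other limits, which stayed similar. For KO_TAC against KO_sham the count of channel genes called, 11, became 2 with the haemoglobin term and 6 to 23 when 1 library was left out. For KO_TAC against FF_TAC, 12 became 6 with that term, 0 with haemoglobin-low libraries alone and 4 to 18 with 1 library left out. The 0 of other comparisons became 2 (FF_TAC against FF_sham), 2 (knockout by TAC interaction), 3 (PBS_TAC against PBS_sham) and 1 (AAV_sham against PBS_sham) with DESeq2, 2 and 1 in the last 2 with no filter, and 3 for AAV_TAC against AAV_sham with Myl7 under 100 CPM. With 1 library left out these were 0 to 1, 0 to 10 and 0 to 11 for FF_TAC against FF_sham, PBS_TAC against PBS_sham and AAV_sham against PBS_sham.

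Kcnj3 in KO_TAC against FF_TAC (0.79) changed sign with the Myl7 covariate (-0.76), with Myl7 under 100 CPM (-1.77) and with a library left out (-1.77 to 1.15). Against KO_sham it ran from -2.64 to 0.39 with 1 library left out. Kcnq1 in KO_TAC against KO_sham (-0.03) was 0.18 with the haemoglobin term and -0.11 to 0.038 with 1 library left out. With no filter, Kcnn2 lost both calls (adjusted p = 0.0516 and 0.0714), and Kcna7 (0.0560) and Kcnt2 (0.0512) lost theirs. The cause was not tested.

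With the replicate block, 10 channel genes were called in KO_TAC against KO_sham (Kcnj14 at 1.53, adjusted p = 0.0643, was not), 12 in KO_TAC against FF_TAC and 0 in the other 8 comparisons, and Kcnj3 in KO_TAC against FF_TAC was at -0.050. Genes with few counts, such as Kcnip1, limit precision most.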
